A study of Mus musculus with 2 samples.

Results

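Glycolysis, the entry of pyruvate into mitochondria and the citric acid cycle were followed here through 42 named genes, taken by symbol from the 55536 annotated genes of the series. They form a set defined by gene function. Total RNA was taken from cortex of the left hemisphere. The mice were B6CASTF1/J females, 2 months old, the first-generation hybrid of the C57BL/6J and CAST/EiJ strains. The series held 1 group and 2 stranded libraries, replicates 1 and 2, each from 300 ng of RNA with synthetic spike-in RNA. Both tissue pieces had their own label but shared a donor entry, so the spread between the libraries may be that of animals or may be technical. The libraries held 31196858 and 32292150 expected counts. There was no other condition, so the data gave levels, isozyme and isoform shares, and the difference between replicates, and no p-value.

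Glycolysis splits glucose into pyruvate in the cytosol. Pyruvate is then either reduced to lactate, which leaves or enters cells through monocarboxylate transporters, or carried into mitochondria, where the pyruvate dehydrogenase complex turns it into acetyl-CoA for the citric acid cycle. In brain, glucose is the main fuel, and many of the enzymes exist as isozymes from separate genes that neurons, astrocytes and other cells use to different extents. In a piece of cortex, fewer cells of a type and less RNA per cell cannot be told apart.

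Levels are given in TPM, the share of a gene among all transcripts after correction for transcript length, from the gene tables that the authors derived from alignments to the transcriptome. The values of replicate 1 and replicate 2 come in that order, followed by mean ± SD (n = 2). A further deposited table gave TPM from the reads without those alignments and is called read-based. The tissue label was set against markers. All 4 neuron markers were present, with Snap25 at 1348 and 1306 TPM, and their sums were 2612 and 2529 TPM. All 4 astrocyte markers summed to 973 and 952 TPM, and all 3 myelin markers to 574 and 627 TPM. The 3 microglia markers summed to 68.3 and 68.9 TPM and the 2 endothelial ones to 31.8 and 31.7 TPM. The 3 red blood cell markers summed to 229 and 294 TPM, with the globin genes Hba-a1 and Hbb-bs on top. Of muscle markers, 1 of 3 reached 1 TPM in both libraries, Acta1, and Ckm stood at 0 and 0.04 TPM. Of 2 liver markers, Alb had a count of 0 in both, and Apoa2 stood at 1.5 and 0.93 TPM, from 11 and 8 counts.

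All 42 genes reached 1 TPM in both libraries, beside 58.8% of 22015 nuclear protein-coding genes. At 100 TPM or more in both were 18 of 42, or 42.9%, beside 3.95% of protein-coding genes. The genes held 1.67% and 1.62% of the TPM of all protein-coding genes (1.64% ± 0.0303) while being 0.191% of those genes by number. In the read-based tables they held 1.99% and 1.94% (1.97% ± 0.0367). The steps from triose phosphate to pyruvate took 0.664% ± 0.0144 of protein-coding TPM, those from hexokinase to aldolase 0.486% ± 0.00587, and the citric acid cycle 0.255% ± 0.00396. The kinases of pyruvate dehydrogenase took 0.0208% ± 0.000208. By role, every gene from triose phosphate to pyruvate passed 100 TPM, against 6 of 8 from hexokinase to aldolase, 3 of 11 in the cycle, and 0 of 6 for the pyruvate carrier and dehydrogenase complex. These counts depend on the kind of table, since 28 of 42 genes reached 100 TPM in the read-based tables. Protein-coding genes as a whole took 76.5% and 75.5% of TPM there, against 46.7% and 44.1% by alignment. Their share at 100 TPM was not computed for the read-based tables, so the rise is not particular to this set. The genes added were Pfkl, the cycle genes Cs, Idh3a, Idh3g and Ogdh, and Mpc1, Mpc2, Pdha1, Pdhb and Dlat.

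**Figure D1:**
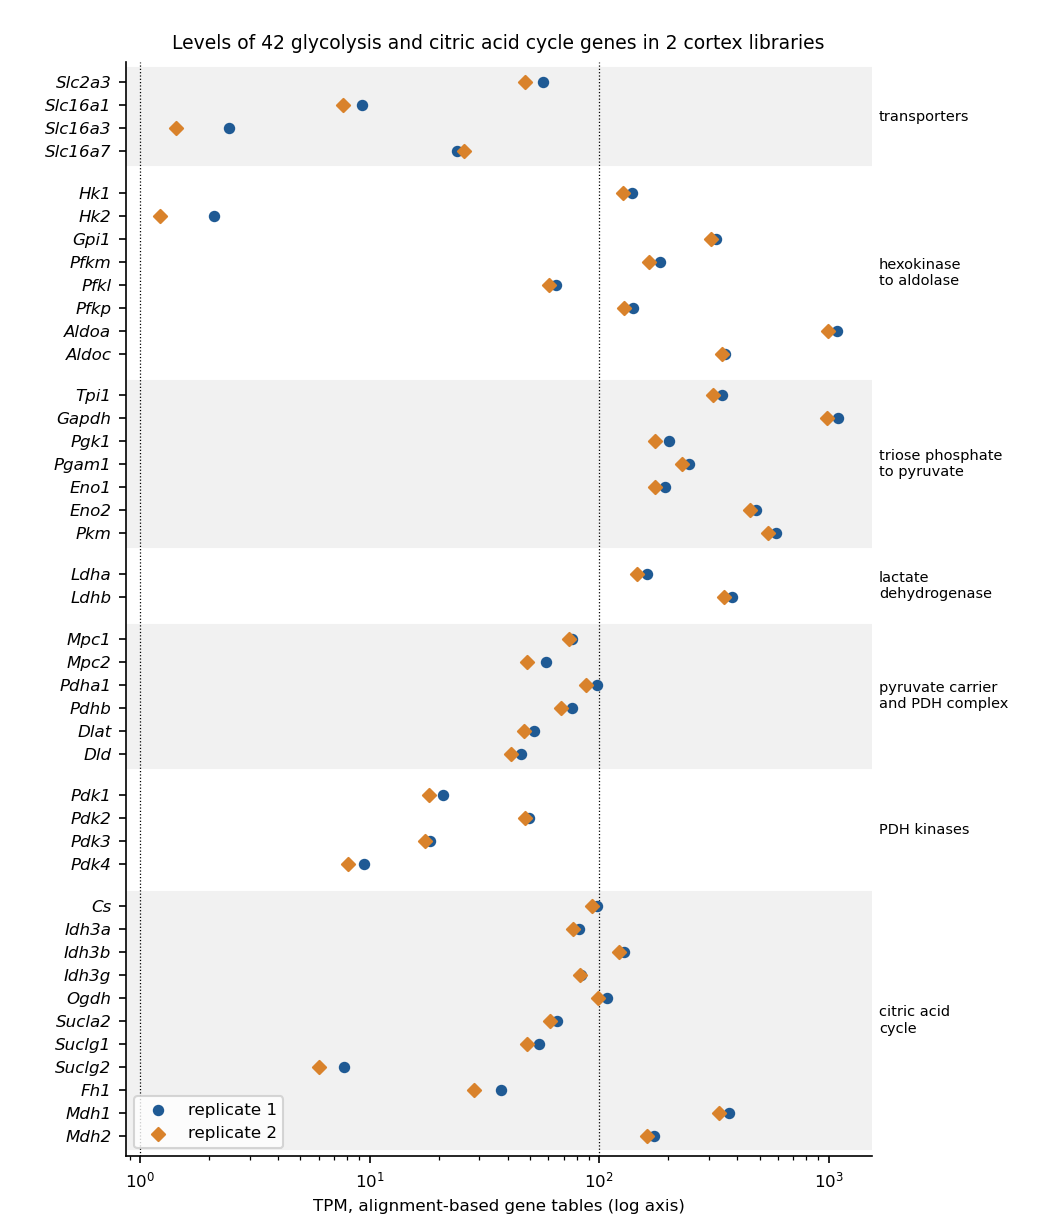
Level of each gene in replicate 1 (blue circles) and replicate 2 (orange diamonds) in TPM on a log axis, grouped by role, with dotted lines at 1 and 100 TPM. Gapdh and Aldoa lie near 1000 TPM, Hk2 and Slc16a3 near 1 to 2.5 TPM, and 41 of 42 genes are higher in replicate 1. Protein-coding genes as a whole took 46.7% of TPM in replicate 1 and 44.1% in replicate 2.

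From the highest to the lowest gene the levels ran from Gapdh at 1042 ± 74.8 TPM to Hk2 at 1.66 ± 0.615 TPM. In that order, 20 of 41 pairs of neighbours had overlapping ranges over the 2 libraries, and 6 pairs changed places between them. Gapdh and Aldoa were such a pair, as were Mdh1 and Aldoc, Pgk1 and Eno1, Cs and Pdha1, Slc2a3 and Suclg1, and Dlat and Pdk2. TPM was higher in replicate 1 for 41 of 42 genes, the exception being Slc16a7. Protein-coding genes as a whole took 46.7% of TPM in replicate 1 and 44.1% in replicate 2. How many of all protein-coding genes were higher in replicate 1 was not computed. A TPM value is a share among all transcripts and so also depends on the other transcripts of its library. The replicates are therefore compared on scaled counts further on.

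Among the 4 transporter genes of the set, the highest was Slc2a3, which encodes the neuronal glucose transporter GLUT3. It stood at 56.8 and 47.6 TPM (52.2 ± 6.51). Of the monocarboxylate transporters, Slc16a7, which encodes the high-affinity carrier MCT2 of neurons, was highest at 24 and 25.7 TPM (24.9 ± 1.2). Slc16a1, encoding MCT1 of endothelium and glia, had 9.24 and 7.64 TPM (8.44 ± 1.13). Slc16a3, encoding the low-affinity lactate exporter MCT4 of astrocytes, had 2.43 and 1.43 TPM (1.93 ± 0.707), from 82 and 55 counts. Slc16a7 held 67.3% and 73.9% of the TPM of the 3 genes, or 70.6% ± 4.68, and 76.0% ± 2.97 in the read-based tables. The ranges of the 3 genes did not overlap.

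Hexokinase, which traps glucose as glucose 6-phosphate, was almost wholly Hk1. It had 139 and 127 TPM, and Hk2, the isozyme of muscle and fat, had 2.09 and 1.22 TPM from 143 and 125 counts. Hk1 held 98.8% ± 0.374 of their sum. Gpi1, which turns glucose 6-phosphate into fructose 6-phosphate, stood at 322 and 306 TPM (314 ± 11.3). Phosphofructokinase, the committed step, was spread over 3 genes that did not overlap: Pfkm at 183 and 166 TPM, Pfkp at 140 and 128 TPM, and Pfkl at 65.0 and 60.3 TPM. Their shares were 47.0% ± 0.272, 36.1% ± 0.0532 and 16.9% ± 0.219. Aldolase splits the sugar phosphate into triose phosphates. Aldoa, the general form, had 1083 and 992 TPM, and Aldoc, the brain form concentrated in astrocytes, had 353 and 344 TPM, so Aldoa held 74.9% ± 0.834 of the pair.

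From triose phosphate on, Tpi1, which interconverts the triose phosphates, had 342 and 314 TPM (328 ± 20.2). Gapdh, the step that makes NADH, had 1094.5 and 989 TPM. Its rank among protein-coding genes was 4, and 1 in the read-based tables. Pgk1, which makes ATP, had 201 and 174 TPM, and Pgam1, a mutase, had 247 and 231 TPM. The ranges of Pgk1 and Pgam1 did not overlap. Enolase makes phosphoenolpyruvate. Eno2, the neuronal form, had 480 and 456 TPM (468 ± 17.1), and Eno1, the general form, 193 and 175 TPM (184 ± 12.7), which gave Eno2 71.8% ± 0.656 of the pair, before reads shared between Eno1 and its copies are weighed in. Pkm, the pyruvate kinase of brain and muscle, had 590 and 546 TPM (568 ± 31.2). Of lactate dehydrogenase, Ldhb, the heart-type subunit, had 378 and 350 TPM, and Ldha, the muscle-type subunit, 161 and 146 TPM. Ldhb held 70.3% ± 0.353 of the pair, and 78.8% ± 0.144 in the read-based tables.

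**Figure D2:**
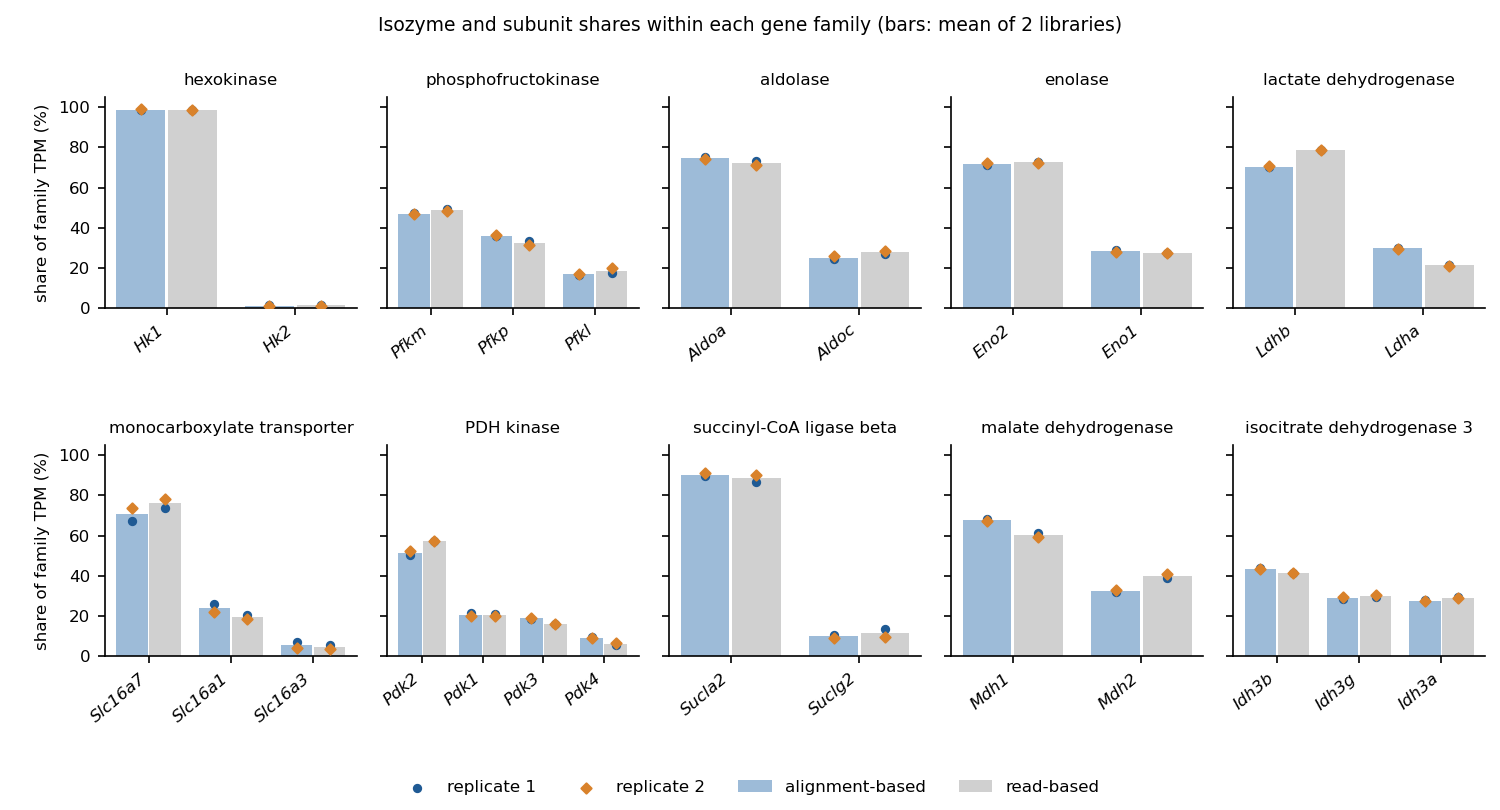
Share of each gene in the summed TPM of its family, in percent, as the mean of 2 libraries from the alignment-based (blue bars) and read-based (grey bars) tables, with replicates 1 (circles) and 2 (diamonds). Hk1, Aldoa, Eno2, Ldhb, Slc16a7, Pdk2, Sucla2 and Mdh1 each hold over 50% of their family in both kinds of table.

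The mitochondrial pyruvate carrier is made of Mpc1 and Mpc2. Mpc1 had 76.4 and 74.2 TPM (75.3 ± 1.59) and Mpc2 58.6 and 48.5 TPM (53.6 ± 7.14). In the pyruvate dehydrogenase complex, Pdha1 and Pdhb encode the E1 subunits, Dlat the E2 core and Dld the E3 subunit that other dehydrogenases share. They came in the order Pdha1 (98.3 and 87.4 TPM), Pdhb (76 and 67.9 TPM), Dlat (52.3 and 47.2 TPM) and Dld (45.6 and 41.3 TPM), and no neighbours in it overlapped. The read-based tables put Pdhb at 142 and 124 TPM beside Pdha1 at 139.6 and 134 TPM. The order of the E1 subunits was thus not settled. Dlat stayed above Dld in the read-based tables, but by the protein-coding transcript of each gene the order was reversed. By alignment Dlat-201 had 30.0 and 27.5 TPM beside 39.4 and 37.1 TPM for Dld-201. In the read-based tables Dlat-201 had 44.2 and 42.8 TPM beside 58.3 and 56.9 TPM for Dld-201. The order of Dlat and Dld was thus not settled either. Of the kinases that switch the complex off, Pdk2 overlapped Dlat and was above Dld, and the other 3 were below all of these subunits. Pdhx, a gene of the same complex outside the set, had 20.45 and 25.1 TPM and overlapped Pdk1. Pdk2 had 49.4 and 47.7 TPM (48.6 ± 1.23), Pdk1 20.8 and 18.2 TPM, Pdk3 18.3 and 17.4 TPM, and Pdk4, which fasting raises in muscle and liver, 9.46 and 8.03 TPM. Pdk2 held 51.4% ± 1.27 of the 4, and Pdk1 and Pdk3 overlapped.

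In the citric acid cycle, Cs, citrate synthase, had 97.8 and 93.2 TPM (95.5 ± 3.2). The isocitrate dehydrogenase that makes NADH is built from the products of Idh3a, Idh3b and Idh3g. Idh3b was highest at 128 and 122 TPM, Idh3g had 83.3 and 82.9 TPM, and the catalytic subunit Idh3a 81.5 and 76.7 TPM. Ogdh, the E1 subunit of 2-oxoglutarate dehydrogenase, had 108 and 99.0 TPM (103.5 ± 6.38). Succinyl-CoA ligase has a shared alpha subunit, Suclg1, at 54.6 and 48.5 TPM, and a beta subunit that sets whether ATP or GTP is made. The ATP-forming Sucla2 had 65.9 and 61 TPM, and the GTP-forming Suclg2 had 7.77 and 6.05 TPM, so Sucla2 held 90.2% ± 1.08 of the beta pair. Fh1, fumarase, had 37.4 and 28.5 TPM (33.0 ± 6.24). Mdh1, the cytosolic malate dehydrogenase of the malate-aspartate shuttle, had 368 and 334 TPM (351 ± 24.5), and the mitochondrial Mdh2 had 173 and 162 TPM (167 ± 7.66). Mdh1 held 67.7% ± 0.526 of the pair, and 60.3% ± 1.5 in the read-based tables.

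The same gene led its family in both kinds of table in 10 of 10 families. By plain counts, which favour long transcripts, it did so in 9, since Idh3a (39.9% ± 0.119) then came before Idh3b (39.2% ± 0.0157).

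Of 53 other genes of these pathways, 52 were matched and 39 reached 1 TPM in both libraries, 5 of them at 100 TPM or more. Among 18 other glycolytic isozymes and regulators, 10 reached 1 TPM and none passed 100 TPM. Bpgm, which makes the bisphosphoglycerate that red cells use, had 27.7 and 24 TPM, and the bifunctional enzymes Pfkfb3 and Pfkfb2, which set the activator of phosphofructokinase, had 22.5 and 20.2 TPM and 20.3 and 18.5 TPM. The testis form Ldhc was lowest, with a count of 0 in both libraries. The isozymes Pklr of liver and red cells and Gapdhs of sperm also had counts of 0, a result that allows up to 3 counts per library. Among 8 other transport genes, 5 reached 1 TPM: Bsg, the chaperone of monocarboxylate transporters, had 255 and 245 TPM, the glucose transporter Slc2a1 of the blood-brain barrier and astrocytes 55.8 and 54.2 TPM, and Emb, another such chaperone, 14.8 and 13.6 TPM. Slc2a2 of liver was lowest at 0.01 and 0.07 TPM. Slc2a1 lay within the range of Slc2a3 by alignment and above it in the read-based tables, with 121 and 119 TPM beside 88.9 and 74.1 TPM for Slc2a3.

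Of 11 matched genes of other pyruvate metabolism, 9 reached 1 TPM. The phosphatase gene Pdp1, whose product switches pyruvate dehydrogenase on, had 98.4 and 95.6 TPM, above each of the 4 kinase genes. The malic enzyme gene Me3 had 41.2 and 42.8 TPM and the pyruvate carboxylase gene Pcx, which refills the cycle, 35.9 and 30.8 TPM. Pdha2 of testis had a count of 0 in both. All 15 other genes of the cycle and its shuttles reached 1 TPM, 4 of them at 100 TPM. Got1, a transaminase of the malate-aspartate shuttle, had 174 and 154 TPM, and Sdha, of succinate dehydrogenase, 147 and 143 TPM. The cytosolic Aco1 was lowest at 12.3 and 11.5 TPM.

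Some of the genes have near-identical copies, annotated transcripts of other genes with at least 98% identity over at least 80% of the shorter one, between which reads can be split. This held for 9 of 42. Eno1 was the most affected: Eno1b, a protein-coding gene on chromosome 18, took 4914 and 4997 counts and the pseudogene Gm4735 took 1802 and 1831 counts, beside 7175 and 7014 counts for Eno1 itself. Eno1 thus held 51.7% and 50.7% of the counts of the 3 loci, and 65.4% and 64.6% in the read-based tables, and its level is uncertain. With the copies added to Eno1, Eno2 held 54.1% ± 0.377 of enolase TPM. Gapdh had 46 copies and kept 90.5% and 87.6% of their summed counts, but 70.5% and 70.5% in the read-based tables, where the pseudogene Gm7336 alone took 9046 and 9174 counts (309 and 249 counts by alignment). Copies at 5% or more were also Gm5537 for Pgk1, Mpc1-ps for Mpc1 and Gm15163 for Suclg2. By alignment the sums left Pgk1 with 93.8% ± 1.19, Mpc1 with 90.1% ± 1.77 and Suclg2 with 92.9% ± 2.47 of the counts. In the read-based tables Gm5537 and Mpc1-ps had a count of 0 in both libraries, so Pgk1 and Mpc1 kept 100%. Suclg2 kept 93.8% ± 0.927 there. For Pgam1, Gpi1, Ldhb and Pkm the gene kept 95.6% or more.

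Pyruvate kinase from Pkm exists in M1 and M2 forms, which differ by a pair of exons used in turn. M1 is the constitutively active form of muscle and mature neurons, and M2 the regulated form of dividing cells and glia. The Pkm gene lies on chromosome 9 at chr9:59656368-59679375 on the plus strand of mm10. The exons, from the GENCODE M21 transcripts, are coding and of equal length, 167 bases, and lie at chr9:59675029-59675195 (M1, in Pkm-202) and chr9:59675568-59675734 (M2, in Pkm-201). They are shown since these bases separate the forms. Capitals mark the 64 positions at which they differ, so that 61.7% of bases are the same.

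Pkm M1 exon: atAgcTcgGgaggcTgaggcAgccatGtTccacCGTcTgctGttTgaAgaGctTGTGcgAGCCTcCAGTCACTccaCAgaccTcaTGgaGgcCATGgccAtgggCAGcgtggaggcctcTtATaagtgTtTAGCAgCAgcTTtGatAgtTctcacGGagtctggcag
Pkm M2 exon: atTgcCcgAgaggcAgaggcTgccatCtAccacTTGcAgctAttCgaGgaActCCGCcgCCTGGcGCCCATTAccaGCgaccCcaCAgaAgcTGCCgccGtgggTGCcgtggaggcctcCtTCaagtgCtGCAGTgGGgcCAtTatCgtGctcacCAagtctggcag

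The split of Pkm between these exons was near even. Pkm-202, with the M1 exon, had 305 and 265 TPM, and Pkm-201, with the M2 exon, 262 and 262 TPM. The M1 share of their sum was 53.8% and 50.2% (52.0% ± 2.52), and 47.3% and 44.3% by the reads alone (45.8% ± 2.11). M1 was thus above M2 in both libraries by alignment and under it in both by the read-based tables, and which form leads was not settled. Besides its exon, Pkm-201 holds 391 noncoding bases that Pkm-202 lacks, 205 before the start codon and 186 after the stop codon, so reads at the ends also enter the split. The other 9 annotated Pkm transcripts took 3.87% and 3.45% of Pkm TPM, and 14% and 10.2% in the read-based tables, there mostly Pkm-206 at 9.82% of the gene's TPM.

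Hk1 has several first coding exons, each with its own start codon. The gene lies at chr10:62268855-62379908 on the minus strand. The exon of Hk1-202 encodes the short stretch by which hexokinase binds the outer mitochondrial membrane, and it lies at chr10:62340013-62340075. Hk1-205 starts at chr10:62342501-62342560 and lacks it, and Hk1-201 and Hk1-203 start at chr10:62358336-62358362. They are printed in transcript direction because the tables disagree on which leads, with the start codon in capitals.

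Hk1-202 start exon: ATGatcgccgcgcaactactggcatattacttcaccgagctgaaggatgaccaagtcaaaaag
Hk1-205 start exon: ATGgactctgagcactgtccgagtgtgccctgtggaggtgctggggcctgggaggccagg
Hk1-201 and Hk1-203 start exon: ATGggacagaactgccagcgaggacag

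Among these 4 transcripts, which held 97.7% ± 0.186 of Hk1 TPM, Hk1-202 took 53.4% and 56.5% (55.0% ± 2.17) by alignment but 27.8% and 27.6% in the read-based tables. Hk1-205 took 13.6% and 9.12% by alignment and 37.9% and 35.5% in the read-based tables. Hk1-201 and Hk1-203 together took 33.0% and 34.4%, and 34.3% and 36.9% in the read-based tables. Only that last share was similar in all 4 tables.

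Ogdh, at chr11:6291633-6356642 on the plus strand, carries near its start an exon of either 103 or 91 coding bases. They lie at chr11:6316978-6317080 (Ogdh-201 and Ogdh-204) and chr11:6316765-6316855 (Ogdh-202 and Ogdh-203), and are shown as the bases that tell these forms apart.

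Ogdh 103-base exon: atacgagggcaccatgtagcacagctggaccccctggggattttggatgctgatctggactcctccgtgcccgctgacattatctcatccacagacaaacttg
Ogdh 91-base exon: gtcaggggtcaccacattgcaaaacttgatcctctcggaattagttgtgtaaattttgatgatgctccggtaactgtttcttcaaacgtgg

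Transcripts with the exon of 103 bases held 58.5% and 62.7% (60.6% ± 2.96) of the 4 full-length forms, and 63.2% and 64.6% (63.9% ± 1.02) in the read-based tables. Here the order held in all 4 tables. The full-length forms were 87.1% ± 0.948 of Ogdh TPM by alignment and 53.8% ± 1.44 in the read-based tables, where the short Ogdh-206 and Ogdh-207 took 21.1% and 23.4%.

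**Figure D3:**
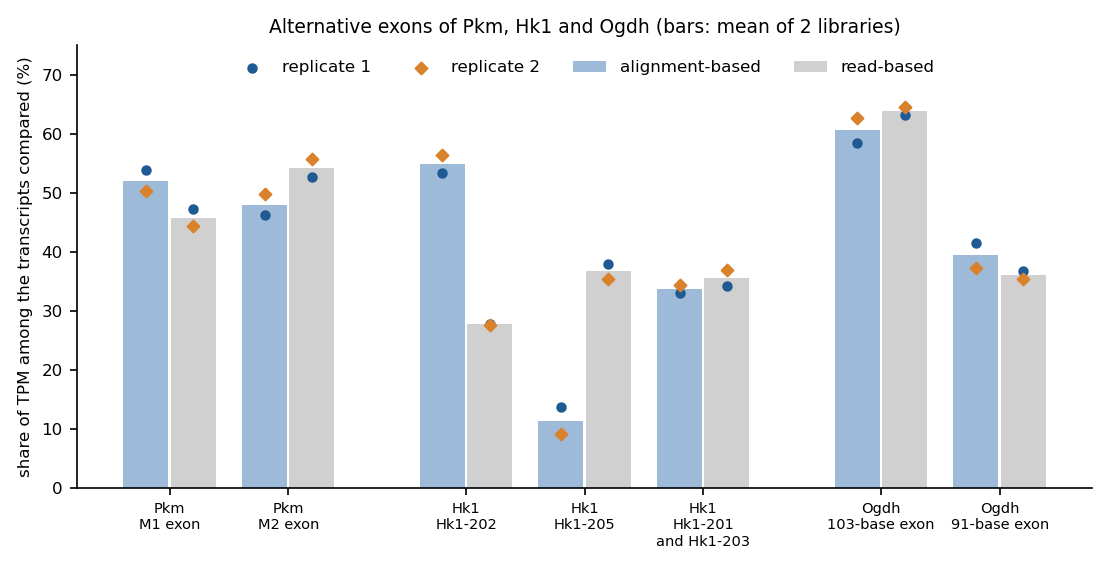
Share of TPM, in percent, of the alternative exons of Pkm, Hk1 and Ogdh among the transcripts compared, as the mean of 2 libraries from the alignment-based (blue bars) and read-based (grey bars) tables, with replicates 1 (circles) and 2 (diamonds). The 103-base exon of Ogdh leads in every table, while Hk1-202 and Hk1-205 change places between the kinds of table and Pkm M1 lies at 52.0% and 45.8%.

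Over all transcripts, the 42 genes had 298 annotated, 149 of them protein-coding, from 1 for Slc16a1 to 20 for Hk1. The leading transcript was the same in both libraries and both kinds of table for 33 of 42 genes. The other 9 were Slc16a3, Slc16a7, Hk1, Gpi1, Aldoa, Gapdh, Pkm, Ldha and Ldhb. For Gapdh, at chr6:125161715-125166467, the noncoding transcript Gapdh-208 of 483 bases held 749 and 675 TPM by alignment, 68.4% ± 0.135 of the gene, and 0 in the read-based tables. All of its bases lie in exons of the coding Gapdh-203, and 444 lie in the coding Gapdh-201 of 1272 bases, which held 321 and 293 TPM by alignment. The read-based tables instead put 40.1% of Gapdh in Gapdh-207, 28.4% in Gapdh-209 and 24.9% in Gapdh-203, all annotated as coding. Gapdh-207 and Gapdh-209 are also short, with 471 and 482 bases, of which 165 and 172 are coding. Gapdh-203 has 1420 bases, 999 of them coding, and took 16007 and 16327.5 of the 24562 and 24989 read-based counts of the gene. A short transcript raises the TPM that a given count yields. With expected counts per 1000 bases of the longest transcript marked principal in the annotation in place of TPM, Aldoa came first (19816), Pkm next (10289) and Gapdh after them (9873).

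Of the other genes without a common leading transcript, Ldha was 96.8% Ldha-202 by alignment and split between Ldha-201 (47.6%) and Ldha-202 (43.2%) in the read-based tables. Those 2 transcripts share 1508 of the 1588 bases of Ldha-202. Ldhb was 83.1% Ldhb-201 by alignment, against 37.8% Ldhb-201, 32.4% Ldhb-202 and 29.4% Ldhb-203 in the read-based tables. Aldoa-201 held 72.1% by alignment, and in the read-based tables Aldoa-201 led in replicate 1 (58.3%) and Aldoa-202 in replicate 2 (45.1%). For Gpi1 the coding Gpi1-201 led by alignment with 38.8%, and Gpi1-207, annotated as a target of nonsense-mediated decay, led in the read-based tables with 36.4%. Slc16a7 was led by Slc16a7-206 (36.5%) by alignment and by Slc16a7-204 (47.5%) in the read-based tables. For Slc16a3 the lead by alignment passed between Slc16a3-202 in replicate 1 and Slc16a3-201 in replicate 2, at a level too low to rank transcripts.

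Protein-coding transcripts made up 90% or more of TPM for 23 of 42 genes in each kind of table, but these were not all the same genes. They held 30.4% of Gapdh by alignment and 99.3% in the read-based tables, and 93.7% and 64.7% of Pdk2. The share over all genes was not computed. Retained-intron transcripts were highest by alignment in Pfkp, with 37.3% of its TPM, against 26.8% in the read-based tables. They took 33.8% and 27.3% of Idh3g, 29.2% and 9.52% of Pdk4, 23.0% and 18.7% of Gpi1, and 22.7% and 28.4% of Eno2, in the same order of tables. In the read-based tables they were highest in Dlat, with 36.2% against 12.7% by alignment, and Pdhb had 34.2% against 17.2% and Dld 28.0% against 11.9%. Transcripts annotated for nonsense-mediated decay were highest by alignment in Gpi1, with 31.6% of its TPM, against 36.7% in the read-based tables. They took 30.7% of Mdh2 by alignment and 8.73% in the read-based tables. For Idh3a they took 17.3% by alignment and 44.3% in the read-based tables, the highest share there, and for Fh1 0.977% and 31.0%.

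The kinds of table also differed in the level of a gene. The read-based TPM was higher for 42 of 42 genes, by 1.2 to 3.55 times, in tables where protein-coding genes as a whole took 76.5% and 75.5% of TPM. As shares of protein-coding TPM, 22 genes were higher and 20 lower in the read-based tables, and 33 lay within 0.25 on the log2 scale. Gapdh was higher by 1.09 on the log2 scale, Fh1 by 0.65, Ldhb by 0.60, Mpc2 by 0.52 and Ogdh by 0.49. Mdh1 and Pdk4 were lower, at -0.48 each.

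**Figure D4:**
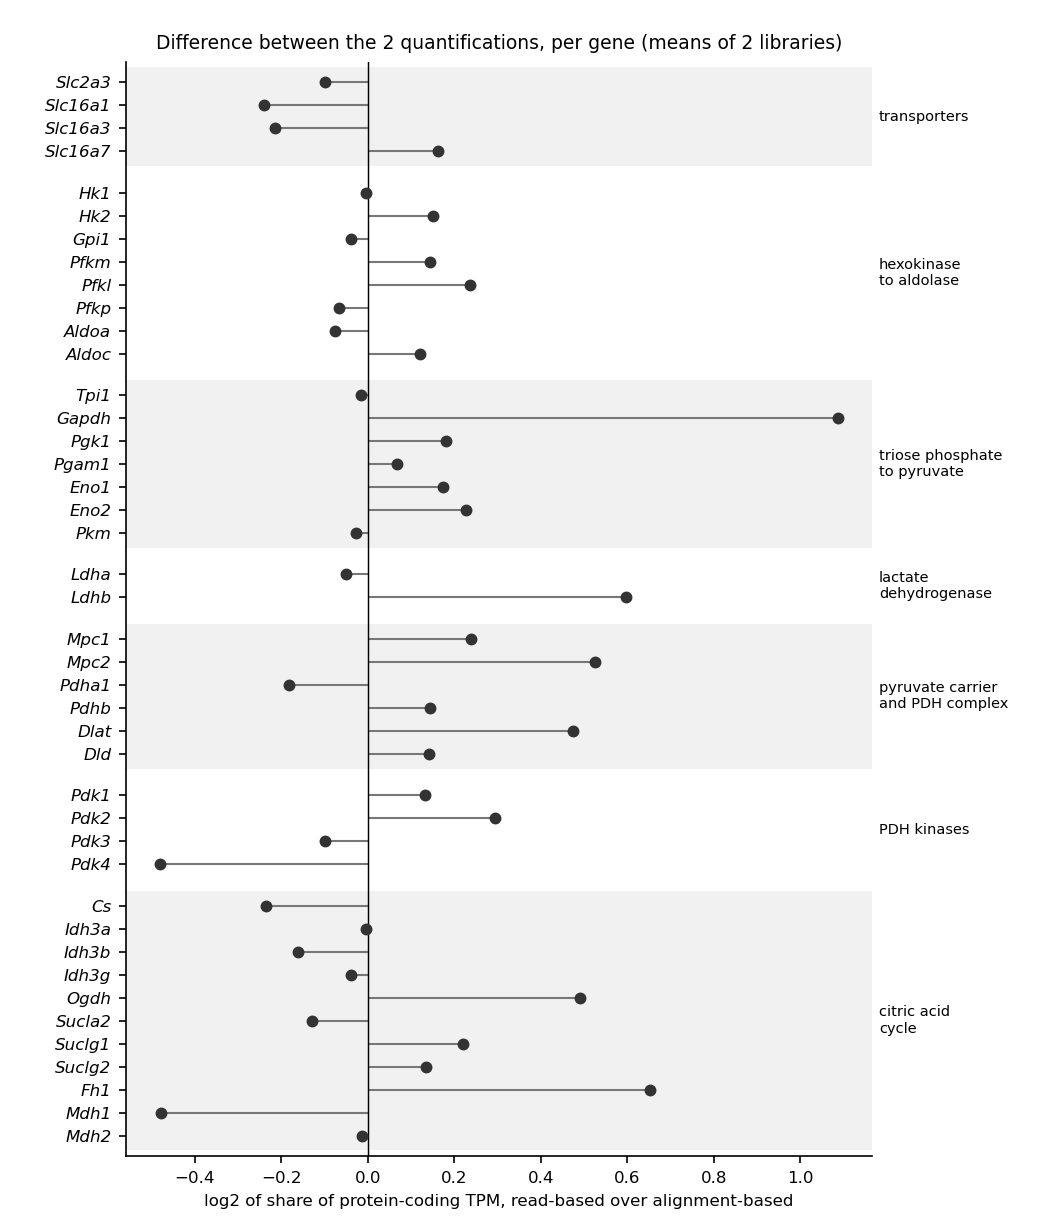
Log2 ratio of each gene's share of protein-coding TPM, read-based over alignment-based tables, from the means of 2 libraries, grouped by role. Gapdh stands out at 1.09, and 33 of 42 genes lie within 0.25 of 0.

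The replicates were compared on expected counts, rounded and scaled by TMM, a scaling that assumes most genes alike. Intervals are exact at 95% and cover counting error only. At the rule of an interval wholly beyond 2-fold, 0 of 42 genes were called, beside 0.307% of the 18562 genes whose counts averaged 10 or more. The lowest ratio of replicate 2 over replicate 1 was that of Slc16a3, -0.59 on the log2 scale (-1.12 to -0.09), and the next that of Suclg2, -0.27 (-0.48 to -0.05). The highest was that of Pdk2, 0.05 (-0.03 to 0.14). Over all 42 the median was -0.03, against 0.00 for all genes tested, and 34 of 42 ratios were under 0, beside 50.3% of all genes tested.

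By the weaker rule that the interval leaves out equality, 16 of 42 genes were lower in replicate 2, or 38.1%, beside 6.89% of all genes tested, and 1 of 42 was higher, beside 8.17%. High counts narrow the interval. Where the mean count reached 1000, 13 of 36 of these genes were lower and 1 higher, beside 9.53% and 16.2% of 5679 genes. The 16 were Slc2a3, Slc16a1, Slc16a3, Pfkm, Aldoa, Tpi1, Gapdh, Pgk1, Eno1, Ldha, Pdha1, Pdhb, Ogdh, Suclg2, Fh1 and Mdh1. Aside from Slc16a3 and Suclg2, the ratios farthest from 0 were those of Slc16a1, at -0.20 (-0.34 to -0.05), and Fh1, at -0.15 (-0.26 to -0.04). Pgk1 had -0.13 (-0.18 to -0.08), Mdh1 -0.10 (-0.14 to -0.06) and Aldoa -0.05 (-0.08 to -0.03). The gene above equality was Aldoc at 0.05 (0.01 to 0.08). The intervals of all 4 kinase genes held equality. The count moved with the scaling, from 13 lower genes with spike-ins, beside 6.34% of all genes tested, to 23 with the total of counts, beside 11.1%. It was 11 in the read-based tables, beside 6.39%.

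Some cell markers moved too. All 3 myelin markers and 3 of 4 astrocyte markers had intervals above equality in replicate 2, as did 2 of 3 red blood cell markers and 1 of 4 neuron markers, and none of the neuron markers lay under it. None of the 3 microglia, 2 endothelial and 2 tested muscle markers had an interval that left out equality. Among all genes tested, 8.17% lay above equality, and 16.2% where the mean count reached 1000. The part of the markers in the result was not tested. With 1 library on each side the differences compare these libraries and not animals.

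**Figure D5:**
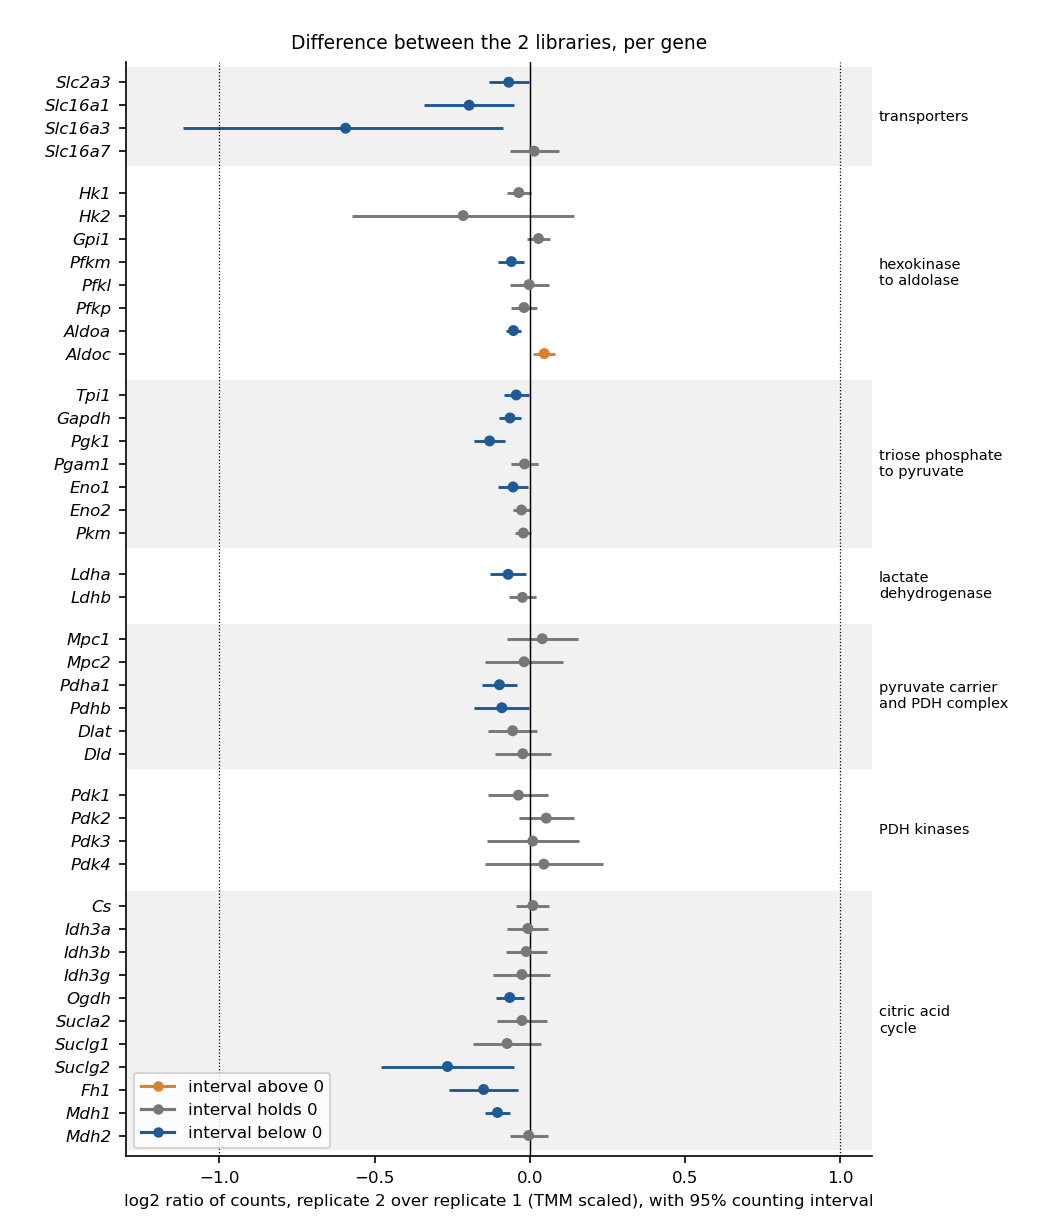
Log2 ratio of scaled counts, replicate 2 over replicate 1, with the 95% counting interval, grouped by role. Blue intervals lie under 0 (16 genes), orange above it (Aldoc), and grey hold 0 (25 genes), and none lies wholly beyond the dotted lines at 2-fold.

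The genes lie on 17 chromosomes, with 9 of 42 on chromosome 6 and 4 on the X chromosome (Pgk1, Pdha1, Pdk3 and Idh3g). On chromosome 6, Eno2 and Tpi1 lie 40.9 kb apart and Tpi1 and Gapdh 347 kb apart, the only members of the set within 1 Mb of each other. The libraries come from females, and whether both X copies were read was not measured, since the tables do not separate the alleles.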

How the data were processed

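Total RNA-seq of 2 cortex libraries of 1 group was used. The authors deposited 3 tables per library. A gene table and a transcript table, both alignment-based, hold expected counts and TPM as deposited, and a read-based transcript table deposited beside them holds estimated counts and TPM. Assembly mm10 and GENCODE M21 are named in the labels' file list. Neither aligner nor quantifier is given in the sources used here. The gene tables also give a posterior standard deviation of the count, deposited in the unit of the count, which was 0 in both libraries for 27 of 42 genes. The CAST/EiJ allele was quantified against a C57BL/6J reference, which can lower counts.

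The 42 genes and all lists were chosen with earlier results of these data known. The rule for named genes takes all 42, the 3 highest and the lowest of each of the 4 lists of other pathway genes, copies that hold 5% or more of summed counts, and transcripts that lead; 1 gene the rule takes is not reported here. Each gene has 1 ID, except that Aldoa has 2 annotated IDs; the one that overlaps the RefSeq gene was used, and the other held 11 and 17 counts. Mpc1l was not matched. Spike-ins (96) and 26249 transfer RNA and control features stayed out of gene values. For read-based gene values, transcripts were summed.

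Shares, means and SDs were computed with Python 3.11.15 and pandas 2.3.3. Expected counts were rounded and scaled by TMM in edgeR 4.0.16 (R 4.3.3), which set replicate 2 to 1.01 times replicate 1. The replicate ratio used a prior count of 0.5, a mean count of at least 10 and an exact Clopper-Pearson 95% interval from scipy 1.17.1. The interval rule was tested on simulated data. Without molecular identifiers, PCR copies of a molecule are counted apart, so the intervals and the floor of 3 counts cover counting error alone. Copies were found with blastn 2.17.0 on annotated transcripts. Exon sequences were cut from the GENCODE M21 transcripts. Alternatives covered the kind of table, the libraries, limits, copies, length correction and scaling (DESeq2 1.42.0 size factors, totals, spike-ins). No test between groups was possible with 1 group.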

Additional observations from a re-analysis of the deposited data

How the results depend on the processing

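No paired analysis was possible because the series has 1 group. All 42 genes stayed at 1 TPM or more under each alternative but a limit of 10 TPM, which left 37. At 100 TPM the read-based tables gave 28 genes in place of 18, with no share over all protein-coding genes computed there. Leaving out a library gave 18 and 19. The share of protein-coding TPM was 1.967% in the read-based tables and 1.732% with copies added, and 1.623% to 1.666% with a library left out. By read-based tables the shares were 48.87% for Pfkm, 72.2% for Aldoa, 72.52% for Eno2, 78.77% for Ldhb, 76.02% for Slc16a7, 57.39% for Pdk2, 88.5% for Sucla2, 60.26% for Mdh1 and 41.19% for Idh3b. By counts they were 41.34% for Pfkm, 70.92% for Aldoa, 73.43% for Eno2, 63.07% for Ldhb, 75.38% for Slc16a7, 41.53% for Pdk2, 86.85% for Sucla2, 70.11% for Mdh1 and 39.16% for Idh3b. With copies added they were 54.08% for Eno2, 70.72% for Ldhb and 88.83% for Sucla2. By counts per kb of the principal transcript, chosen after seeing the data, they were 49.52% for Pfkm, 81.81% for Aldoa, 66.72% for Eno2, 69.82% for Ldhb, 55.23% for Slc16a7, 53.14% for Pdk2, 61.68% for Mdh1 and 42.85% for Idh3b. Hk1 stayed between 98.52% and 99.12%. With a library left out, Slc16a7 had the widest range, 67.29% to 73.91%. The Pkm M1 share was 45.8% in the read-based tables and 47.44% by counts, and 50.23% to 53.8% with a library left out. The leading transcript was common to 34 genes among protein-coding transcripts and to 36 by counts. Calls between replicates stayed at 0 under each scaling, a limit of 1.5-fold and the read-based tables. They reached 17 when the interval had only to leave out equality, beside 8.17% of all genes tested above equality and 6.89% below it. Spreads over 2 libraries and counts under 150, as for Hk2 and Slc16a3, limit the precision, and the cause of these differences was not tested.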
